A study of Mus musculus with 12 samples.

Results

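The expression of 10 genes that mark tumor-associated macrophages was followed across all libraries of a knockdown study in HM1, a mouse ovarian cancer cell line. The genes were found by name in all 12 tables and are 10 of the 55425 gene identifiers that the tables share. These are Csf1r, Adgre1, C1qa, C1qb, C1qc, Mrc1, Trem2, Cd68, Cd163 and Apoe. The study has 4 groups of 3 RNA sequencing libraries: tumors labelled shST3GAL3, tumors labelled shControl, cultured HM1 cells with the shST3GAL3 hairpin, and cultured HM1 cells with the shControl hairpin. All groups carry a short hairpin construct, and the labels give the control line as wild type. The labels describe every sample as a murine ovarian cancer cell, tumors included, and give neither the host strain, age and site of the tumors nor the number of hairpins or clones. Whether replicates are separate animals or cultures is not stated, so each p-value rests on a spread between libraries that may be technical only.

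Tumor-associated macrophages derive from blood monocytes that enter a tumor and from macrophages resident in the tissue. They depend on signaling through the receptor encoded by Csf1r, take up dead cells, lipids and proteins through scavenger receptors, and are a main source of C1q, the molecule that starts the classical complement pathway. In ovarian and other carcinomas they are often among the most abundant immune cells. Tumors were sequenced whole, so fewer macrophages, less RNA of a gene per macrophage and RNA from other cells cannot be told apart. The cancer cells are among these other cells, since cultured HM1 cells had 1 TPM or more of Cd68, Apoe, Mrc1 and Cd163.

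None of the 10 genes passed the test of the knockdown in tumors. Of the 10, 0 were called by limma at an adjusted p under 0.05, where 1.51% of all 14915 genes tested were called, and 1 had an unadjusted p under 0.05, where 18.7% of all genes did. Their changes ran from -0.27 for Apoe to 0.33 for Trem2 on the log2(TPM + 1) scale. TPM is a level scaled by gene length and by the total of the library, so levels of different genes can be set side by side. The 95% intervals of 9 of the 10 genes lay inside a 2-fold change in either direction, and that of Apoe reached -1.15 on the log2 scale. Over the same libraries 5 of 12 genes of inflammatory monocytes and 3 of 17 tested genes of scavenger receptors and alternative activation rose, with Chil3 counted in both, and so did T and NK cell and mast cell genes. Among the T, NK and mast cell genes, Klrd1, Tpsab1 and Cpa3 were not called without knockdown tumor 1 or without knockdown tumor 2. None of these monocyte and scavenger receptor genes was called without knockdown tumors 1 and 3.

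The labels were checked on the target of the hairpin. St3gal3, which encodes a sialyltransferase, had 7.28, 5.87 and 5.76 TPM in knockdown tumors, against 14, 15.4 and 15.4 TPM in control tumors (limma adjusted p = 0.00954). In culture it had 1.52, 1.25 and 1.83 TPM in knockdown cells, against 9.59, 12.5 and 12.9 TPM in control cells. Tables of TPM keep no read depth, so the depth of the libraries is unknown. Skeletal muscle marker genes summed to 94.4, 15.7 and 77.3 TPM in knockdown tumors and 3.45, 16.0 and 4.39 TPM in control tumors, which sets knockdown tumors 1 and 3 apart. Without these libraries 0 of the 10 genes were called, 3 of 10 had positive changes instead of 7, and the median change was -0.04 instead of 0.17; St3gal3 then had a limma adjusted p of 0.0531. Only 1 knockdown tumor remains in that fit, which assumes that it varies like the control tumors.

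Upstream sequences of 4 of the genes are shown because C1qb and C1qc moved together over the tumors while Mrc1 and Cd163 moved together in another pattern. They are the 250 bases before the transcription start in the RefSeq table of build GRCm38.p6, on the gene's own strand, 5′ to 3′. The labels name another build, GRCm39, so these coordinates hold for GRCm38.p6 only. Capitals mark GAGGAA or its reverse complement TTCCTC, the core bound by the macrophage transcription factor PU.1 and by related ETS factors. The window of C1qb is chr4:136886201-136886450 on the minus strand, that of C1qc chr4:136892915-136893164 on the minus strand, that of Mrc1 chr2:14229164-14229413 on the plus strand and that of Cd163 chr6:124304401-124304650 on the plus strand.
C1qb: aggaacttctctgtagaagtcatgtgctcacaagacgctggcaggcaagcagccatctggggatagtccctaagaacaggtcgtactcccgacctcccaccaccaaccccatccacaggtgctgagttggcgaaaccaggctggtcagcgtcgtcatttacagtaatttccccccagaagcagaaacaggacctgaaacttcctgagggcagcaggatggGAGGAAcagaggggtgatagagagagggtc
C1qc: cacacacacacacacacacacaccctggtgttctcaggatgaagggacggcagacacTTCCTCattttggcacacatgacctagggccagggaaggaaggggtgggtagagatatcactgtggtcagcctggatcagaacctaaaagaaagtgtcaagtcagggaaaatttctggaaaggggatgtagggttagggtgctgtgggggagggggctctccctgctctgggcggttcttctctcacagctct
Mrc1: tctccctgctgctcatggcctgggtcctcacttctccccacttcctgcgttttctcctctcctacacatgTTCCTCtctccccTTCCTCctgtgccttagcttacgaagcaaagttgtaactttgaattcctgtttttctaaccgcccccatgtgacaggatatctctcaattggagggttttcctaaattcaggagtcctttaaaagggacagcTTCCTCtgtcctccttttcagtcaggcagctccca
Cd163: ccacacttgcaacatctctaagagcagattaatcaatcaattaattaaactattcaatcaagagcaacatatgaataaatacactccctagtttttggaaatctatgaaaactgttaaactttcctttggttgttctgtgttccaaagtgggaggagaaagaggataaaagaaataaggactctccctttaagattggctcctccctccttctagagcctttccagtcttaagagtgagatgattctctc

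The motif occurred 1 time in the windows of C1qb and C1qc and 3 times in that of Mrc1, and those 6 letters are not in the Cd163 window. The table holds windows for 7 of the 10 genes, and 6 of the 7 had a match in at least 1 window (Apoe has several starts). Counted by window, the motif was held by 7 of the 9 windows of these genes and by 23.3% of all 32851 windows available. A match describes letters and not a site that is bound.

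Csf1r encodes the receptor for the cytokines CSF1 and IL-34 and Adgre1 the surface receptor F4/80, both defining markers of mouse macrophages. Csf1r had 39.0, 28.1 and 41.6 TPM in knockdown tumors and 28.4, 40.6 and 42.3 TPM in control tumors. The groups overlapped fully, with 1 low library in each. The change was -0.03 on the log2 scale (SE 0.20, 95% interval -0.51 to 0.45, limma adjusted p = 0.945), and it turned positive under median-of-ratios scaling (0.036). Adgre1 had 21.9, 13.2 and 16.2 TPM in knockdown tumors and 15.5, 12.4 and 14.5 TPM in control tumors. Knockdown tumors 1 and 3 lay above every control tumor and knockdown tumor 2 within their range, for a change of 0.24 (SE 0.18, 95% interval -0.18 to 0.66, limma adjusted p = 0.509).

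C1qa, C1qb and C1qc encode the A, B and C chains of C1q. C1qa had 353, 253 and 298 TPM in knockdown tumors and 188, 325 and 299 TPM in control tumors. C1qb had 278, 197 and 233 TPM in knockdown tumors and 141, 245 and 226 TPM in control tumors. C1qc had 267, 181 and 217 TPM in knockdown tumors and 132, 216 and 204 TPM in control tumors. For each chain control tumor 1 was the lowest library and knockdown tumor 1 the highest, and the groups overlapped. The changes were 0.18 for C1qa, 0.23 for C1qb and 0.28 for C1qc, with limma adjusted p of 0.715, 0.632 and 0.549. Without control tumor 1 they were -0.064, -0.012 and 0.061, so C1qa and C1qb turned negative and C1qc came near 0.

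Mrc1 encodes the mannose receptor CD206 and Cd163 the scavenger receptor for haptoglobin-hemoglobin complexes, both used as markers of alternatively activated macrophages. Mrc1 had 42.3, 42.6 and 46.0 TPM in knockdown tumors and 55.2, 33.2 and 44.0 TPM in control tumors. The knockdown tumors lay close together, inside the wider range of the control tumors, with a change of 0.01 (SE 0.17, 95% interval -0.40 to 0.42, limma adjusted p = 0.975). Cd163 had 18.1, 15.2 and 15.0 TPM in knockdown tumors and 26.0, 11.5 and 20.7 TPM in control tumors. Again the control range enclosed the knockdown range, with a change of -0.19 (SE 0.28, 95% interval -0.88 to 0.50, limma adjusted p = 0.738). Without control tumor 1 the change of Cd163 was 0.046, and without control tumor 2 it was -0.51 (limma adjusted p = 0.182).

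Trem2 encodes a lipid-sensing receptor of macrophages, and Apoe a lipid carrier that macrophages and other cells secrete and that TREM2 binds. Trem2 had 15.4, 20.8 and 19.8 TPM in knockdown tumors and 15.5, 13.9 and 14.2 TPM in control tumors. Knockdown tumors 2 and 3 were above all control tumors, and knockdown tumor 1 was within their range. Its change of 0.33 (SE 0.12, 95% interval 0.04 to 0.62) had the smallest p of the 10 genes, unadjusted 0.0306 and limma adjusted 0.218. Apoe had 519, 334 and 532 TPM in knockdown tumors and 350, 625 and 736 TPM in control tumors. It varied most in absolute terms, and its change was -0.27 (SE 0.35, 95% interval -1.15 to 0.62, limma adjusted p = 0.706).

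Cd68 encodes a lysosomal glycoprotein of phagocytes. It had 90.5, 86.4 and 91.8 TPM in knockdown tumors and 75.2, 78.2 and 86.3 TPM in control tumors. Every knockdown tumor was above every control tumor, by a narrow margin of 86.36 TPM in the lowest knockdown tumor against 86.28 TPM in the highest control tumor. It was the 1 gene of the 10 without overlap, where the groups were apart for 24.7% of all genes tested, with knockdown tumors above in 9.81% and below in 14.9%. The change was 0.16 (SE 0.07, 95% interval -0.00 to 0.33, limma adjusted p = 0.271), the narrowest interval of the 10.

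**Figure D1:**
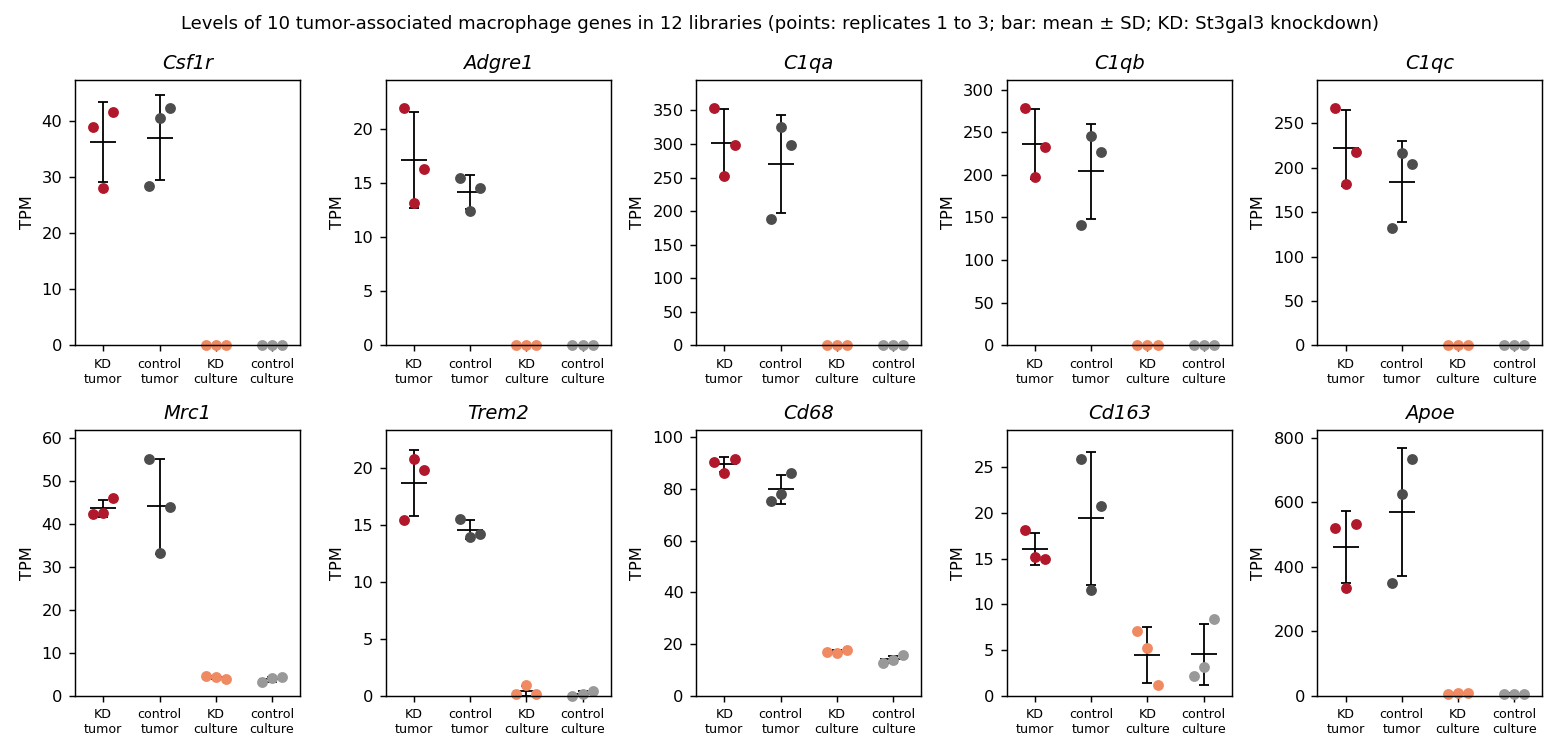
Levels in TPM of the 10 genes in every library, with knockdown (KD) tumors, control tumors, knockdown cultures and control cultures from left to right; points are libraries, bars are means and SD of 3. In tumors the groups overlap for every gene except Cd68, and in culture Adgre1 is at 0 in all 6 libraries.

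By mean level over the 6 tumors the order was Apoe, C1qa, C1qb, C1qc, Cd68, Mrc1, Csf1r, Cd163, Trem2 and Adgre1. Down to Mrc1 each gene exceeded the next in 6 of 6 tumors. Mrc1 exceeded Csf1r in 5 of 6, Csf1r exceeded Cd163 in 6 of 6, Cd163 exceeded Trem2 in 3 of 6 and Trem2 exceeded Adgre1 in 4 of 6, so the last 3 genes have no settled order. Summed over the 10 genes the level was 1442 ± 244 TPM in knockdown tumors and 1438 ± 359 TPM in control tumors (SD, n = 3 each).

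The genes did not vary as 1 block from tumor to tumor. Over the 6 tumors Pearson's r of log2(TPM + 1) was 0.98 to 1.00 among the C1q chains, 0.75 to 0.81 between Csf1r and the chains, 0.94 between Csf1r and Apoe and 0.87 between Mrc1 and Cd163. Between the C1q chains and Mrc1 or Cd163 it was negative, at -0.73 to -0.55. These values describe 6 libraries in 2 groups, and values within a library share its total. The contrast was not seen in every tumor. Deviations of log2(TPM + 1) from the gene's mean had the same sign for C1qa and Cd163 in knockdown tumor 1 (0.33 and 0.07). The same held in knockdown tumor 2 (-0.15 and -0.17) and control tumor 3 (0.09 and 0.26). The signs were opposite in knockdown tumor 3, control tumor 1 and control tumor 2. No r was computed without control tumor 1, which shows the contrast most. Its ratio of Mrc1 to C1qb was 0.392, against 0.135 to 0.216 in the other tumors, and its Cd163 level was the highest of the 6 while its C1q levels were the lowest.

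**Figure D2:**
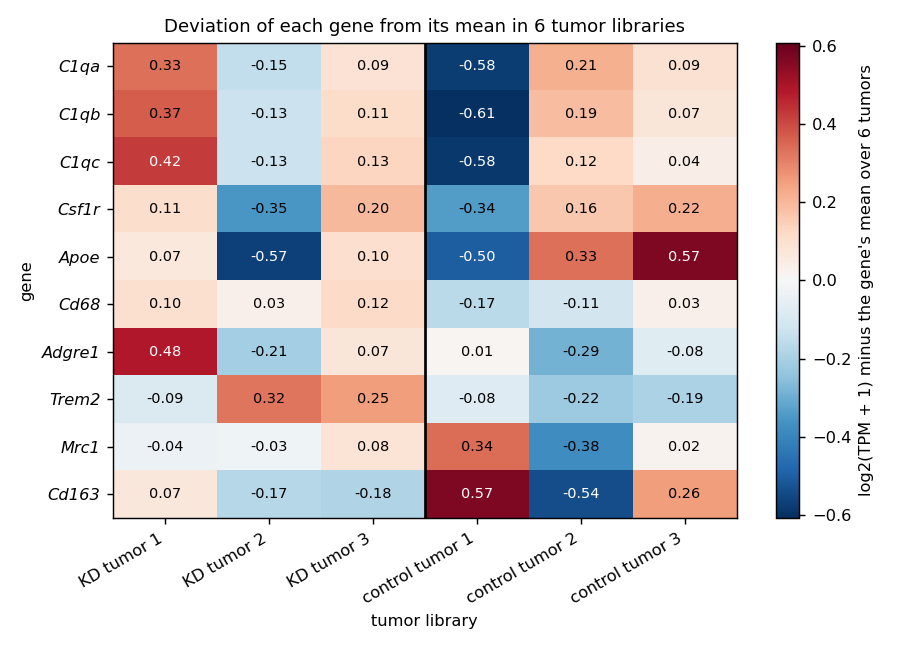
Deviation of log2(TPM + 1) of each gene (rows) from its mean over 6 tumor libraries (columns, knockdown tumors left of the line and control tumors right of it). The C1q chains, Csf1r and Apoe are low together in control tumor 1 and knockdown tumor 2, while Mrc1 and Cd163 are highest in control tumor 1.

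Balance within the group of genes was compared as shares of their summed TPM. The C1q chains made up 54.6, 53.9 and 49.5% of the sum in knockdown tumors and 44.9, 49.1 and 43.2% in control tumors, with no overlap. The mean shares were 52.7 ± 2.75% in knockdown tumors and 45.8 ± 3.03% in control tumors (SD, n = 3 each). Apoe made up 31.6, 28.5 and 35.2% in knockdown tumors and 34.1, 39.0 and 43.6% in control tumors. With Apoe left out of the sum, the C1q share was 79.8, 75.4 and 76.4% in knockdown tumors and 68.1, 80.6 and 76.7% in control tumors, and the groups overlapped. The ratio of C1qa to C1qb was 1.27, 1.28 and 1.28 in knockdown tumors and 1.33, 1.33 and 1.32 in control tumors. Of 7 ratios between members that were computed it was the 1 without overlap, and the tables give no error for the level of a single library.

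Among 10857 other genes averaging 5 TPM or more in tumors, the 6 whose levels over the 6 tumors most resembled the mean standardized level of the 10 genes were Slpi, Ighv1-53, Rassf5, Ctsh, Tnfrsf18 and Ift172, with Pearson's r of 0.98 to 0.99. An r of 0.9 or more was reached by 102 genes. Slpi, which encodes a secreted protease inhibitor, had 255, 166 and 256 TPM in knockdown tumors and 153, 182 and 229 TPM in control tumors. Ctsh, which encodes a lysosomal cathepsin, had 119, 97.8 and 113 TPM in knockdown tumors and 89.1, 101 and 108 TPM in control tumors. In Slpi as in the C1q chains, control tumor 1 was the lowest library. The choice of genes favors this, since the mean standardized level of the 10 genes was itself lowest there (-0.65).

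Cultured HM1 cells had little or none of the defining macrophage transcripts, with exceptions. Adgre1 was listed at 0 in all 6 cultures, Csf1r did not exceed 0.05 TPM and the C1q chains did not exceed 0.13 TPM. Trem2 had 0.13, 0.90 and 0.14 TPM in knockdown cultures and 0, 0.12 and 0.40 TPM in control cultures. The 4 genes at 1 TPM or more, Cd68, Apoe, Mrc1 and Cd163, could be tested, and 0 were called (limma, lowest adjusted p = 1.00), where 0.0296% of 13492 genes were called, 0.0148% in each direction. Of the 4, 1 had an unadjusted p under 0.05, where 3.42% of all genes did.

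Cd68 had 16.7, 16.6 and 17.8 TPM in knockdown cultures and 12.8, 13.8 and 15.7 TPM in control cultures. The groups did not overlap, as was so for 7.71% of all genes tested in culture (knockdown cultures above in 5.25% and below in 2.45%), and the change was 0.26 (SE 0.11, unadjusted p = 0.0433, limma adjusted p = 1.00). Cd68 was above every control library of its tissue in each of the 6 knockdown libraries without being called in either tissue. In tumors the closest libraries were at 86.36 and 86.28 TPM. The share of all genes placed this way in both tissues was not counted. Apoe had 6.23, 8.27 and 8.43 TPM in knockdown cultures and 6.21, 4.62 and 6.69 TPM in control cultures, with overlap.

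Mrc1 had 4.63, 4.30 and 3.83 TPM in knockdown cultures and 3.14, 4.06 and 4.29 TPM in control cultures. Cd163 had 7.09, 5.27 and 1.13 TPM in knockdown cultures and 2.11, 3.12 and 8.36 TPM in control cultures, the widest spread of the 4 genes relative to its level. The groups overlapped for both. Cell and tumor tables list different sets of genes, so levels in cells and tumors are only set side by side. Cd163 averaged 16.1 ± 1.74 TPM in knockdown tumors and 4.50 ± 3.05 TPM in knockdown cultures (SD, n = 3 each).

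The genes of the pathways around these markers were read from lists chosen with earlier results of these data known. In culture 0 genes of any of these lists were called. Of all 14915 genes tested in tumors, 1.07% rose, 0.436% fell, 39.6% had a positive change and the median change was -0.05. An unadjusted limma p under 0.05 was reached by 18.7% of them, the share against which such counts below stand. Pan-macrophage genes outside the 10, a list of 28, had 0 called, 9 with an unadjusted p under 0.05, 22 positive changes and a median of 0.22. Fcgr1, the high-affinity IgG receptor, had 26.2, 21.0 and 23.7 TPM in knockdown tumors and 12.6, 14.6 and 16.3 TPM in control tumors (change 0.67, SE 0.12, limma adjusted p = 0.0525). Fcer1g, the signaling chain of Fc receptors, had 215, 189 and 204 TPM in knockdown tumors and 134, 160 and 161 TPM in control tumors (change 0.42, limma adjusted p = 0.0795). The groups did not overlap for either gene, and neither was called. Over 7 other ways of processing (another pseudocount, no filter, a stricter filter, 2 rescalings, removal of muscle genes and a joint fit of all groups), Fcgr1 was called in 5, with an adjusted p of 0.00914 to 0.127, and Fcer1g in 2, with 0.0325 to 0.169.

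Of 7 listed ligands and receptors of the CSF family 6 were tested, 0 were called, 1 had an unadjusted p under 0.05 and the median was -0.08. Csf1 and Il34 encode the ligands of the CSF1 receptor. Csf1, named after its values were seen, had 57.4, 51.3 and 53.1 TPM in knockdown tumors and 55.1, 53.3 and 50.2 TPM in control tumors (change 0.03, 95% interval -0.14 to 0.20). Il34 had 73.6, 74.0 and 70.0 TPM in knockdown tumors and 71.3, 85.0 and 93.6 TPM in control tumors (change -0.19, limma adjusted p = 0.362). Cultured HM1 cells expressed both ligands, with Csf1 at 49.8 ± 10.3 TPM and Il34 at 77.7 ± 1.80 TPM in knockdown cultures, and 50.0 ± 11.1 and 77.2 ± 4.10 TPM in control cultures (SD, n = 3 each).

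Csf2, which encodes the myeloid growth factor GM-CSF, had 25.3, 24.6 and 27.3 TPM in knockdown tumors and 31.7, 37.2 and 42.6 TPM in control tumors. It was lower in every knockdown tumor and was not called (change -0.50, SE 0.11, limma adjusted p = 0.0867). In culture it had 30.1, 31.1 and 33.0 TPM in knockdown cells and 38.6, 37.0 and 38.3 TPM in control cells, again without overlap and without a call. In tumors it was called without control tumor 1 (limma adjusted p = 0.0406) and in the joint fit (0.0142).

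Complement genes around C1q had 0 of 11 called, 5 with an unadjusted p under 0.05, 8 positive changes and a median of 0.42. C1ra and C1s1 encode the proteases that C1q activates. C1ra had 34.7, 38.3 and 38.6 TPM in knockdown tumors and 13.2, 15.4 and 23.8 TPM in control tumors (change 1.09, SE 0.20, limma adjusted p = 0.0583). C1s1, named after its values were seen, had 57.2, 73.7 and 81.5 TPM in knockdown tumors and 23.4, 28.8 and 45.2 TPM in control tumors (change 1.14, SE 0.26, limma adjusted p = 0.108). Both proteases lay higher in every knockdown tumor, as was so for 9.81% of all genes tested, and neither was called. The difference between the proteases and the C1q chains, whose groups overlapped, was not tested. Cfb, complement factor B of the alternative pathway, had 59.6, 53.5 and 64.3 TPM in knockdown tumors and 11.0, 20.2 and 24.6 TPM in control tumors (change 1.68, SE 0.28, limma adjusted p = 0.0603).

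C1ra and C1s1 were also expressed by cultured HM1 cells. C1ra averaged 17.0 ± 2.27 TPM in knockdown cultures and 16.7 ± 2.13 TPM in control cultures, and C1s1 8.99 ± 1.36 TPM in knockdown cultures and 9.29 ± 2.07 TPM in control cultures (SD, n = 3 each). Of the sources of these transcripts in tumors, host and cancer cells cannot be told apart. C1ra and C1s1 were called without control tumor 3 (limma adjusted p = 0.00973 and 0.0313), and Cfb was called without control tumor 1 (limma adjusted p = 0.00591). Over the 7 other ways of processing C1ra was called in 4 (0.00676 to 0.126), Cfb in 4 (0.00220 to 0.0940) and C1s1 in 1 (0.0196 to 0.169).

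Signaling partners of Trem2 had 0 of 9 called, 1 with an unadjusted p under 0.05 and a median of 0.07. Tyrobp, which encodes the adaptor DAP12 through which TREM2 signals, had 236, 213 and 223 TPM in knockdown tumors and 150, 183 and 170 TPM in control tumors. Its change was 0.42 (SE 0.09, limma adjusted p = 0.0688), with no overlap, and it was called in 2 of the 7 other ways of processing (0.0318 to 0.151). Plcg2, a phospholipase downstream of TREM2, had 6.89, 4.45 and 5.82 TPM in knockdown tumors and 3.75, 5.46 and 4.75 TPM in control tumors, with overlap (limma adjusted p = 0.488).

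Of 20 lipid-handling genes 1 rose and 0 fell, with a median of 0.03. The called gene, Cst7, encodes the cathepsin inhibitor cystatin F, which cytotoxic lymphocytes also express. It rose to 8.82, 8.51 and 7.77 TPM in knockdown tumors, against 3.80, 4.51 and 5.34 TPM in control tumors (change 0.76, SE 0.13, limma adjusted p = 0.0430), and the call was kept in 1 of 6 omissions of a library, that of control tumor 3 (highest adjusted p 0.161), and lost without a filter (0.104).

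Of 19 scavenger receptor and alternative-activation genes 17 were tested, 3 rose and 0 fell, with a median of 0.17. Clec7a, which encodes the beta-glucan receptor dectin-1, rose to 78.4, 90.9 and 93.1 TPM in knockdown tumors, against 38.5, 50.2 and 41.0 TPM in control tumors (change 1.01, SE 0.12, limma adjusted p = 0.0139). Marco, a scavenger receptor for bacteria and particles, rose to 7.21, 4.09 and 3.74 TPM in knockdown tumors, against 0.74, 0.74 and 0.60 TPM in control tumors (change 1.78, SE 0.22, limma adjusted p = 0.0160). Chil3, a chitinase-like protein of monocytes and alternatively activated macrophages, rose to 7.72, 7.36 and 6.90 TPM in knockdown tumors, against 3.89, 3.73 and 4.28 TPM in control tumors (change 0.75, SE 0.10, limma adjusted p = 0.0214). Mrc1 and Cd163, receptors of the same class among the 10, had overlapping groups. Clec7a was not called without knockdown tumor 2, Marco not without control tumor 2 or knockdown tumor 2, and Chil3 not without control tumor 2, control tumor 3, knockdown tumor 1 or knockdown tumor 2, with a highest limma adjusted p of 0.0626, 0.0544 and 0.106.

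Of 12 classical-activation genes 10 were tested, 0 were called and 3 had an unadjusted p under 0.05, with a median of 0.30. Nos2, the inducible nitric oxide synthase, had 12.3, 14.8 and 16.7 TPM in knockdown tumors and 3.87, 5.51 and 9.33 TPM in control tumors (change 1.17, SE 0.28, limma adjusted p = 0.102, called in 1 of the 7 other ways of processing, the joint fit). Cd86, a costimulatory ligand of antigen-presenting cells, had 11.4, 10.6 and 12.3 TPM in knockdown tumors and 5.87, 9.54 and 7.83 TPM in control tumors (change 0.53, limma adjusted p = 0.154).

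Inflammatory monocytes are the blood cells from which many tumor macrophages arise. Of their 12 listed genes 5 rose and 0 fell, with a median of 0.65, where 1.07% of all genes rose. Ms4a4c rose to 30.8, 25.6 and 30.8 TPM in knockdown tumors, against 6.44, 5.14 and 9.78 TPM in control tumors (change 1.92, SE 0.21, limma adjusted p = 0.0130). Ly6c2, the surface marker of these cells, rose to 43.4, 28.0 and 39.1 TPM in knockdown tumors, against 8.06, 8.40 and 12.01 TPM in control tumors (change 1.85, SE 0.20, limma adjusted p = 0.0139). Plac8 rose to 158, 171 and 167 TPM in knockdown tumors, against 64.8, 82.2 and 86.3 TPM in control tumors (change 1.09, SE 0.11, limma adjusted p = 0.0101). The other called genes were Chil3, counted above, and the monocyte chemoattractant gene Ccl2, named after its values were seen, at 489 ± 26.1 TPM in knockdown tumors and 309 ± 46.3 TPM in control tumors (SD, n = 3 each; limma adjusted p = 0.0338).

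Plac8 was called in every omission of a library, Ms4a4c in all but that of knockdown tumor 1, Ly6c2 in all but those of control tumor 2 and knockdown tumor 1, and Ccl2 in that of control tumor 1 alone. The highest limma adjusted p over these omissions was 0.0465 for Plac8, 0.0639 for Ms4a4c, 0.0540 for Ly6c2 and 0.132 for Ccl2. Over the 7 other ways of processing Plac8, Ms4a4c and Ly6c2 were called in all 7, Chil3 in 6 (not without a filter, 0.0536) and Ccl2 in 4. A fit that pairs samples by replicate number is not among these 7. In that fit none of these genes was called (limma adjusted p = 0.0694 for Plac8, Ms4a4c and Ly6c2). Ccl2 was not called with median-of-ratios scaling (0.0514), without a filter (0.0940) or in the joint fit (0.270). The list's summed level did not separate the groups, at 1678 to 2000 TPM in knockdown tumors and 1824 to 2022 TPM in control tumors. Plac8 and Ccl2 are not specific to monocytes here. In cultured HM1 cells Plac8 averaged 49.4 ± 3.98 TPM with the knockdown and 50.0 ± 4.32 TPM in the control, and Ccl2 48.3 ± 15.0 TPM with the knockdown and 50.1 ± 16.7 TPM in the control (SD, n = 3 each). Ccr2, the receptor for the Ccl2 product and named after its values were seen, had 7.81, 8.08 and 9.86 TPM in knockdown tumors and 4.81, 5.16 and 5.62 TPM in control tumors and was not called (limma adjusted p = 0.0576), but was called in 5 of the 7 other ways of processing (0.0105 to 0.133). Without knockdown tumors 1 and 3, the libraries with more muscle transcripts, none of the called monocyte, scavenger receptor and lipid-handling genes named here was called, while their changes kept their sign. In that fit the change was 1.49 for Ly6c2 (limma adjusted p = 0.144), 1.75 for Ms4a4c (0.210), 1.14 for Plac8 (0.142), 1.06 for Clec7a (0.141) and 1.59 for Marco (0.0929). The difference between the monocyte genes and the 10 macrophage genes was not tested.

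**Figure D3:**
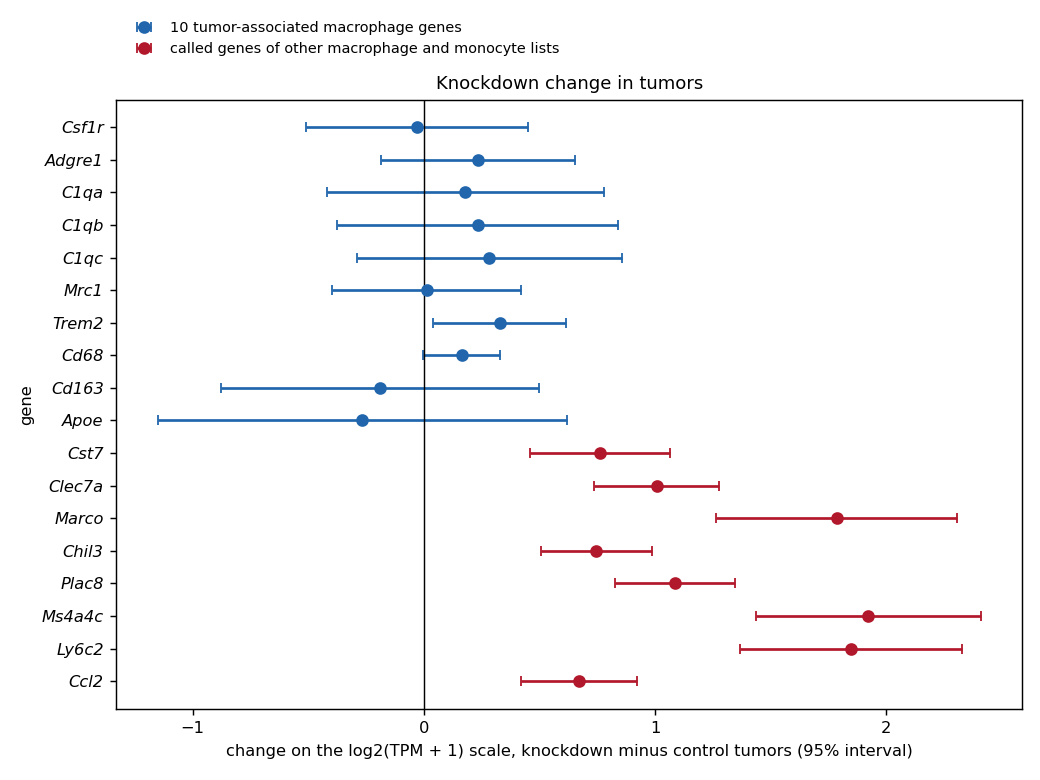
Change of each gene between knockdown and control tumors on the log2(TPM + 1) scale, with 95% intervals from limma; 10 tumor-associated macrophage genes are in blue and the genes called in the other macrophage and monocyte lists in red. The blue points lie between -0.27 and 0.33, and the red genes were picked for display because they were called.

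**Figure D4:**
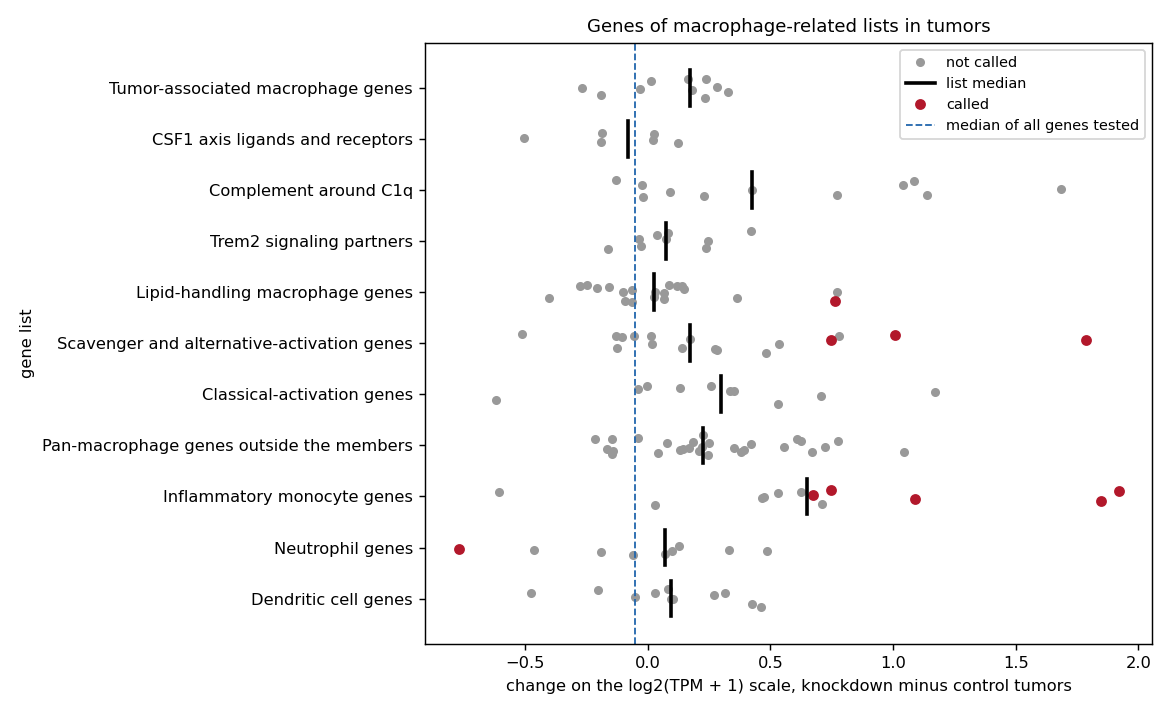
Changes on the log2(TPM + 1) scale between knockdown and control tumors for every tested gene of 11 lists (points, red where called), with each list's median (black) and the median of all genes tested (dashed blue, -0.05). No gene of the top list is called, while 5 genes of the inflammatory monocyte list are.

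Of the marker lists of other cells, those of T and NK cells and of mast cells were higher in knockdown tumors without overlap of their sums, that of epithelial genes was lower without overlap and without a called gene, and those of fibroblasts, endothelium and B cells overlapped. T and NK cell genes summed to 164 to 219 TPM in knockdown tumors and 63.2 to 85.8 TPM in control tumors, with 4 of 14 called, all higher, Gzma and Klrd1 first among them (limma adjusted p = 0.00711 and 0.0152). Mast cell genes summed to 156 to 199 TPM in knockdown tumors and 52.2 to 86.4 TPM in control tumors, with 5 of 8 called, all higher, Tpsab1 and Cpa3 first. Gzma was called in every omission of a library, while Klrd1, Tpsab1 and Cpa3 were not called without knockdown tumor 1 or knockdown tumor 2 (highest limma adjusted p 0.0666, 0.0576 and 0.0662), and Cpa3 was not called without a filter (0.0509). Without both knockdown tumors 1 and 3 the changes were 2.51 for Gzma, 1.00 for Klrd1, 1.13 for Tpsab1 and 1.53 for Cpa3. Only 1 knockdown tumor remains in that fit, so it cannot decide whether these calls hold. Fibroblast genes summed to 1029 to 1518 TPM in knockdown tumors and 1366 to 1834 TPM in control tumors, and Fap was the 1 called gene of 10, lower in knockdown tumors and not called when knockdown tumor 1, control tumor 2 or control tumor 3 was left out (highest limma adjusted p 0.0640). Epithelial and ovarian tumor genes, of which 4 of 9 passed the filter in cultured HM1 cells, summed to 2560 to 2826 TPM in knockdown tumors and 3227 to 3432 TPM in control tumors, with 0 of 5 tested genes called, 4 with an unadjusted p under 0.05, and Muc16 of the list at 0 in every tumor. In cultured HM1 cells this sum was also lower with the knockdown, without overlap. It was 4567 to 4654 TPM in knockdown cultures and 4853 to 5052 TPM in control cultures. Endothelial genes summed to 67.6 to 97.4 TPM in knockdown tumors and 90.2 to 131 TPM in control tumors with 0 of 10 called and 4 with an unadjusted p under 0.05. B cell genes summed to 5.53 to 22.4 TPM in knockdown tumors and 2.12 to 10.7 TPM in control tumors with 0 of 2 tested genes called and 0 with an unadjusted p under 0.05. The part of these cell types in the results above was not tested.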

How the data were processed

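RNA sequencing of 12 libraries in 4 groups of 3 was used, with groups and replicate numbers from the sample titles. The authors deposited 1 table per sample with gene identifier, name, length and TPM, per the file headers. Tools named without role or version are fastp, HISAT and RSEM, with build GRCm39, per the submitters' processing notes. TPM keeps no depth, so no counting intervals are given. Strand use and the treatment of reads shared by similar genes are not given in the sources used here. Cell and tumor tables list 56061 and 55878 genes and were tested apart.

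Tests used limma 3.58.1 in R 4.3.3 on log2(TPM + 1), trended and robust, on genes averaging 1 TPM or more in either group of the comparison; this scale understates changes of low genes. All 10 genes passed this filter in tumors and 4 in culture. Genes were called, two-sided, at p under 0.05 after Benjamini-Hochberg adjustment across the whole comparison, and every adjusted p comes from limma. The members, lists, tests and naming rule were chosen with earlier results of these data known. The rule named, per macrophage, monocyte, neutrophil or dendritic list, up to 4 called genes or else the 2 with the smallest p, and up to 2 called genes of other lists.

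The fit was tested on simulated data with known changes. Alternatives were another pseudocount, filter, scaling, a replicate block, a joint fit and omission of libraries. Figures used matplotlib 3.10.9 in Python 3.11.15.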

Additional observations from a re-analysis of the deposited data

How the results depend on the processing

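In tumors 0 of the 10 genes were called under all 15 alternatives, with a lowest adjusted p of 0.131 (Cd68, median-of-ratios scaling), and in culture 0 of those tested under all 13. The main fit did not pair samples by replicate number. Deviations of same-numbered tumors correlated at -0.144 to 0.0489, and those of same-numbered cultures at -0.155 to -0.0597. Those of tumors with different numbers correlated at -0.142 to 0.149. Deviations of 3 libraries from their group mean sum to 0, so these values cannot settle whether the numbers pair samples. The fit with the replicate block called 2 genes in tumors, 0 of them in the lists, against 225 and 19 without the block.

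Other counts of called tumor genes were 82 without a filter, 599 with all 4 groups in 1 fit, 72 without knockdown tumors 1 and 3, and 38 to 229 without 1 library. The 19 called list genes became 9, 44, 4 and 4 to 21 in the same settings. In culture the 4 called genes became 11 with a pseudocount of 0.1, 8 with the stricter filter, 8 with all groups in 1 fit and 7 to 15 without 1 library. The cause was not tested.

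Without knockdown tumors 1 and 3 the changes that reversed were those of Adgre1 (-0.088), C1qa (-0.060), C1qb (-0.012), Mrc1 (-0.021), Plcg2 (-0.041) and Csf1 (-0.042), 3 of the 10 genes stayed positive and their median was -0.041. Csf1r was 0.036 under median-of-ratios scaling, which moved the median of all genes to 0.01 instead of -0.05. Without 1 library the changes in tumors ran, with reversals, from -0.21 to 0.14 for Csf1r, -0.064 to 0.33 for C1qa, -0.012 to 0.38 for C1qb, -0.17 to 0.19 for Mrc1, -0.51 to 0.046 for Cd163 and -0.018 to 0.061 for Csf1. In culture that of Cd163 also reversed, from -0.43 to 0.53. There was no reversal in tumors for Adgre1 (0.052 to 0.40), Apoe (-0.58 to -0.049) or the median of the 10 (0.053 to 0.24). The knockdown minus control difference in the C1q share of 6.92 percentage points became 2.10 with Apoe left out of the sum. Depth is unknown, so low levels cannot be bounded.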

Other observations

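Neutrophil and dendritic cell genes were also read in tumors. Of 11 neutrophil genes 9 were tested, 0 rose and 1 fell, with a median of 0.07, and the list summed to 430 to 555 TPM in knockdown tumors and 632 to 849 TPM in control tumors. The called gene, Mmp9, encodes a matrix protease of neutrophils and macrophages and fell to 229, 328 and 304 TPM in knockdown tumors, against 492, 508 and 457 TPM in control tumors (change -0.77, SE 0.13, limma adjusted p = 0.0497), which was not called once any single library was left out (0.0508 to 0.140), nor with median-of-ratios scaling (0.0653) or without a filter (0.114). Without Mmp9, a choice made after seeing the values, the neutrophil sum was 201, 207 and 251 TPM in knockdown tumors and 358, 138 and 175 TPM in control tumors, and the groups overlapped. Of 12 dendritic cell genes 11 were tested, 0 were called and 1 had an unadjusted p under 0.05, with a median of 0.09. Fscn1, the actin bundler of mature dendritic cells, had 28.6, 21.1 and 24.3 TPM in knockdown tumors and 37.4, 30.7 and 35.8 TPM in control tumors (limma adjusted p = 0.119). Xcr1, the chemokine receptor of cross-presenting dendritic cells, had 1.51, 0.64 and 1.41 TPM in knockdown tumors and 0.29, 0.77 and 0.79 TPM in control tumors (limma adjusted p = 0.389).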
